A study of Homo sapiens with 6 samples.

Results

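The results below concern 27 genes that make, move, store and sense cholesterol in ARPE-19, an established human cell line of retinal pigment epithelium. They were chosen by gene name: every row of the gene table whose name was on the list was taken, and all 27 names matched 1 row each, of 60612 genes in all. The series holds 3 libraries of cells that received miR-204-5p by transfection and 3 of cells that received a control named miR-NC in the labels. The microRNA is abundant in the normal pigment epithelium. The dose, the time after transfection and the sequence of miR-NC are not given in the labels. All libraries came from the same line, poly(A) RNA was sequenced, and the series was set up to look for targets of the microRNA. The design text calls the replicates biological. The labels do not say whether they were separate transfections, so the p-values measure only the spread between these samples.

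Cholesterol is built from acetyl-CoA in a long chain of steps: mevalonate is formed first, isoprenoid units are joined into squalene, and squalene is closed into a sterol ring that is then trimmed and reduced. The transcription factors SREBP-1 and SREBP-2, encoded by SREBF1 and SREBF2, switch many of these genes on. SCAP carries them out of the endoplasmic reticulum when sterols are low, and the INSIG proteins hold them there when sterols are plentiful, so the enzymes of the pathway often move together. Cells of the pigment epithelium also take up lipoproteins and the lipids of shed photoreceptor tips, whose cholesterol leaves the lysosome through NPC2 and NPC1.

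The sequence of the transfected microRNA is shown because pairing of its seed, bases 2 to 8, with the 3' UTR of an mRNA is what such a transfection acts through. It is given 5' to 3' with the seed in capitals, from RefSeq (chr9:70810031-70810052, minus strand, GRCh38.p14), above miR-211-5p, the family member with the same seed. A full match to the seed followed by an A is called an 8mer, a match without the A a 7mer-m8, a match to bases 2 to 7 followed by an A a 7mer-A1, and the same match alone a 6mer.
hsa-miR-204-5p: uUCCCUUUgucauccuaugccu
hsa-miR-211-5p: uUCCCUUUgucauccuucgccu

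Seed matches were counted in 3' UTRs of GENCODE release 29 (GRCh38), taking the longest one of every gene. There, 7 of 27 cholesterol genes (25.9%) held a match of any class, against 4677 of 10877 tested protein-coding genes (43.0%). An 8mer or 7mer-m8 stood in 1 of 27 (3.7%), against 2214 of 10877 (20.4%). The median UTR length was 1480 bases in the cholesterol genes and 1567 bases in all of them. That 1 gene was NPC1, and its 8mer lay in the UTR of 1 of 6 coding transcripts, which is not the principal one. Over principal transcripts, 0 of 27 held an 8mer or 7mer-m8, against 16.9% of 10816 genes, and the median UTR length was 765 bases against 1058 bases. The next strongest matches were 7mer-A1 in HMGCS1, IDI1, DHCR7 and SOAT1, and MVK and STARD4 held a 6mer. These are matches of letters, and binding was not measured. The sites are shown as they read on the mRNA, as DNA and with the match in capitals, to set beside the levels that follow. They lie at chr18:23528297-23528304 on the minus strand for NPC1, chr5:43290218-43290224 on the minus strand for HMGCS1, chr10:1040665-1040671 on the minus strand for IDI1, chr11:71435187-71435193 on the minus strand for DHCR7 and chr1:179355151-179355157 on the plus strand for SOAT1.
NPC1: attctttcccaAAAGGGAAgaaaggtgtgg
HMGCS1: atttaaaatggAAGGGAAgaataggggcag
IDI1: agagcaggttcAAGGGAAattaaatgatat
DHCR7: cttttgccttcAAGGGAAttccgagtgtcc
SOAT1: caaatacactcAAGGGAAgttatttttaaa

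Transfection with miR-204-5p moved none of the 27 genes past the test. Levels are in FPKM, as the authors deposited them, which counts fragments per kilobase and is scaled by library size. All 27 genes passed the filter on low values, which asked for 0.5 FPKM or more in 3 or more libraries. Of them, 0 were higher and 0 were lower at an adjusted p under 0.05 (limma, Benjamini-Hochberg over 13151 genes), where the share of all tested genes was 0%. An unadjusted p under 0.05 was reached by 0 of 27, against 273 genes or 2.08% of all tested. In 0 of 27 did all miR-204-5p values lie above all miR-NC values, against 3.77% of all genes, and in 0 of 27 did they all lie below, against 2.17%. Fold changes are given on the log2(FPKM + 1) scale, miR-204-5p over miR-NC. They were positive in 12 genes and negative in 15. Their median was -0.05, beside -0.02 over all tested genes. The split was 9 positive and 18 negative after quantile normalization and also after rescaling without ribosomal and mitochondrial RNA. The libraries are bulk RNA, so a change in the number of cells that express a gene and a change in RNA per cell cannot be told apart.

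The precision differed widely between the genes. The 95% limits of the log2 fold change lay within -1 and 1 for 21 of 27 genes, and reached beyond for HMGCS1, SQLE, EBP, SC5D, DHCR7 and INSIG2. NPC2, SCAP and NSDHL had the narrowest limits, and a doubling or halving lies outside them. With 3 libraries in each group, an exact permutation test of a single gene cannot give a two-sided p below 0.1.

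**Figure D1:**
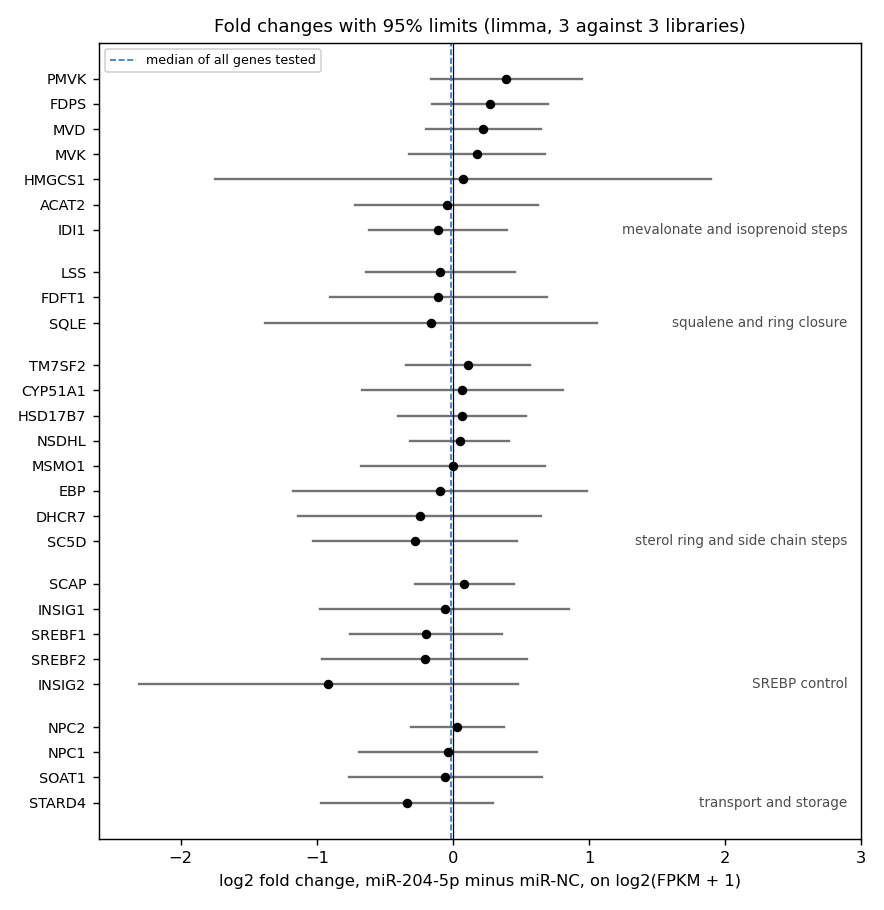
Log2 fold change of each of the 27 cholesterol genes (miR-204-5p over miR-NC, as a difference of log2(FPKM + 1)), by role, as points with 95% limits from limma. The limits of all 27 genes include 0, and those of HMGCS1 run from -1.75 to 1.89.

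The early enzymes, from acetyl-CoA to the isoprenoid units, had 5 positive and 2 negative fold changes with a median of 0.17. PMVK, the kinase that adds the second phosphate to mevalonate, stood at 54.3, 39.9 and 57.1 FPKM in miR-204-5p replicates 1, 2 and 3, against 36.5, 30.1 and 48.8 FPKM in the miR-NC replicates. Each miR-204-5p library lay above the miR-NC library of the same number, yet the groups overlapped, because miR-NC replicate 3 exceeded miR-204-5p replicate 2. PMVK averaged 50.5 ± 9.25 FPKM with miR-204-5p and 38.5 ± 9.51 FPKM with miR-NC (SD, n = 3 each). Its log2 fold change of 0.39 (95% limits -0.16 to 0.95) had the smallest unadjusted p of the 27 genes, 0.139 in limma.

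FDPS, which joins the isoprenoid units into farnesyl diphosphate, showed the same arrangement at a similar level. It stood at 47.5, 37.5 and 39.8 FPKM in the miR-204-5p libraries and at 40.7, 32.1 and 30.4 FPKM in the miR-NC libraries. Here miR-NC replicate 1 lay above 2 of the miR-204-5p values. The log2 fold change was 0.27 (95% limits -0.16 to 0.70). MVD, the decarboxylase after PMVK, averaged 7.73 ± 1.12 FPKM with miR-204-5p and 6.47 ± 0.886 FPKM with miR-NC (SD, n = 3 each), and its log2 fold change was 0.22. MVK, the kinase before PMVK, averaged 3.39 ± 0.743 FPKM with miR-204-5p and 2.896 ± 0.681 FPKM with miR-NC (SD, n = 3 each), and its log2 fold change was 0.17. In MVD and MVK, too, each miR-204-5p library lay above the miR-NC library of the same number, and the groups overlapped. NSDHL, a later enzyme, had this order as well, and SREBF2 had the reverse order for every number. The labels do not say that equal numbers pair the samples. How many of all tested genes show either order was not counted. Without miR-204-5p replicate 1 the value of MVK was 0.05.

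HMGCS1, the synthase that makes HMG-CoA, varied most of the 27 genes between libraries. It stood at 3.14, 6.76 and 0.406 FPKM in miR-204-5p replicates 1, 2 and 3, against 6.65, 2.42 and 0.483 FPKM in the miR-NC replicates. Replicate 3 of each group lay under 0.5 FPKM, and each group also held 1 library above 6 FPKM. The highest library held 16.7 times the lowest, and the SD of its log2 values was larger than in 98.5% of tested genes. The group means were 3.44 ± 3.19 FPKM with miR-204-5p and 3.18 ± 3.15 FPKM with miR-NC (SD, n = 3 each). The log2 fold change of 0.07 therefore came with 95% limits of -1.75 to 1.89.

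The other early enzymes were steadier. ACAT2, the thiolase that makes acetoacetyl-CoA, averaged 24.0 ± 4.60 FPKM with miR-204-5p and 25.5 ± 8.66 FPKM with miR-NC (SD, n = 3 each), and its log2 fold change was -0.05. IDI1, which interconverts the isoprenoid units and carries a 7mer-A1, ranged from 7.24 to 9.37 FPKM with miR-204-5p and from 6.91 to 11.3 FPKM with miR-NC, a log2 fold change of -0.11. In both genes the miR-NC range enclosed the miR-204-5p range. A gene on the opposite strand overlaps 15 of the 27, ACAT2 with TCP1 and MVK with MMAB among them. The libraries mark strand, but no source used here says whether counting used it.

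The 3 steps that make squalene and close the ring all had fold changes below 0, from -0.16 to -0.09. SQLE, the epoxidase often described as a rate-limiting step after mevalonate, stood at 6.39, 12.7 and 5.22 FPKM in the miR-204-5p libraries and at 13.0, 13.1 and 3.48 FPKM in the miR-NC libraries. High and low values near 13 and near 5 or less occurred in both groups, and miR-NC replicate 3 was the lowest library. FDFT1, which joins farnesyl units into squalene, stood at 17.4, 28.0 and 15.4 FPKM with miR-204-5p and at 29.3, 23.9 and 13.5 FPKM with miR-NC. LSS, which closes the ring to lanosterol, stood at 11.5, 14.0 and 10.2 FPKM with miR-204-5p and at 16.6, 12.7 and 9.54 FPKM with miR-NC. In all 3 genes replicate 2 was the highest with miR-204-5p and replicate 3 was the lowest in each group. The 95% limits of the log2 fold change were -1.38 to 1.06 for SQLE, -0.91 to 0.69 for FDFT1 and -0.64 to 0.46 for LSS.

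The 8 enzymes that trim and reduce the ring had 5 positive and 3 negative fold changes with a median of 0.02. CYP51A1, the demethylase that acts on lanosterol, stood at 13.6, 18.7 and 10.6 FPKM with miR-204-5p and at 17.7, 15.2 and 8.56 FPKM with miR-NC. MSMO1, the oxygenase of the next demethylation, stood at 34.1, 42.8 and 27.1 FPKM with miR-204-5p and at 42.8, 40.1 and 23.0 FPKM with miR-NC. Both genes were lowest in replicate 3 of each group, as SQLE and FDFT1 were. Their log2 fold changes were 0.07 (95% limits -0.67 to 0.81) for CYP51A1 and 0.0017 (95% limits -0.68 to 0.68) for MSMO1.

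DHCR7, the reductase that yields cholesterol from its last precursor in 1 branch of the pathway, carries a 7mer-A1. It stood at 14.8, 27.9 and 11.6 FPKM with miR-204-5p and at 30.3, 15.1 and 17.9 FPKM with miR-NC. Single libraries near 30 FPKM stood out in both groups, replicate 2 with miR-204-5p and replicate 1 with miR-NC. The log2 fold change was -0.24 (95% limits -1.14 to 0.65). SC5D, a desaturase of the ring, had the lowest mean FPKM of the 27 genes over all 6 libraries. It stood at 0.668, 2.14 and 0.491 FPKM with miR-204-5p and at 0.961, 2.03 and 1.34 FPKM with miR-NC, with a log2 fold change of -0.28. Replicate 2 was the highest in each group. The value was -0.56 with a pseudocount of 0.1 and -0.07 without miR-204-5p replicate 3.

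EBP, the isomerase that shifts a double bond in the ring, ran against most of the pathway. It stood at 24.9, 16.6 and 41.9 FPKM with miR-204-5p and at 21.6, 19.1 and 51.5 FPKM with miR-NC. Replicate 3, in which SQLE, FDFT1 and HMGCS1 were lowest, was the highest in each group for EBP. The log2 fold change was -0.10 (95% limits -1.18 to 0.99). NSDHL, a dehydrogenase of the demethylation steps, hardly varied, from 23.9 to 27.9 FPKM with miR-204-5p and from 22.6 to 26.99 FPKM with miR-NC. Its SD across the libraries was larger than in only 6.59% of tested genes, and its log2 fold change was 0.05 (95% limits -0.31 to 0.41). TM7SF2, a reductase of the ring, ranged from 7.06 to 10.99 FPKM with miR-204-5p and from 7.5 to 8.55 FPKM with miR-NC, a log2 fold change of 0.11. HSD17B7, a ketosteroid reductase, ranged from 1.07 to 1.76 FPKM with miR-204-5p and from 1.04 to 1.86 FPKM with miR-NC, a log2 fold change of 0.07. Pseudogenes of HSD17B7 reached 0.833 FPKM, so its low level is uncertain by shared reads.

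**Figure D2:**
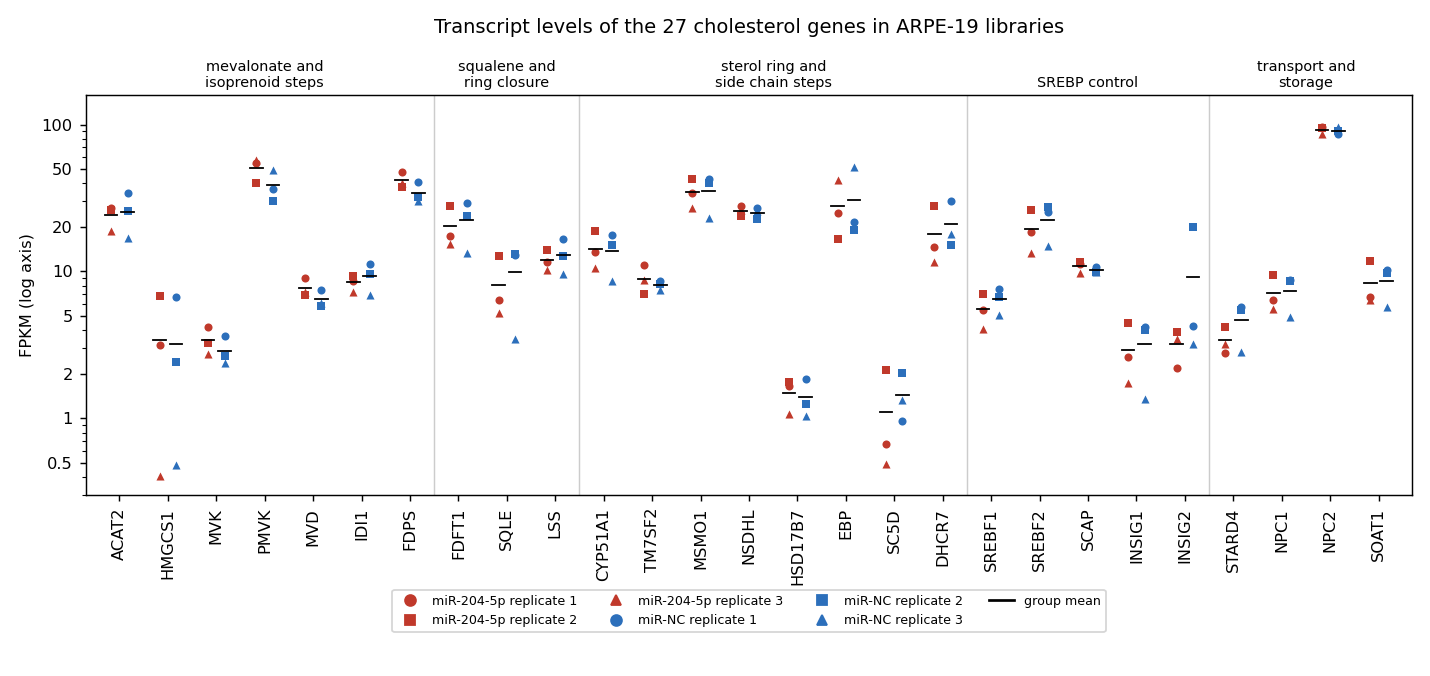
FPKM of the 27 cholesterol genes in each library, on a log axis, by role, with miR-204-5p to the left of miR-NC and short lines at the group means (n = 3 each). The groups overlap in all 27 genes, HMGCS1 spreads from 0.406 to 6.76 FPKM, and 1 miR-NC library of INSIG2 lies apart at 20.1 FPKM.

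Among the genes that sense sterols, 1 was positive and 4 were negative. The transcription factor gene SREBF2 stood at 18.5, 26.3 and 13.4 FPKM with miR-204-5p and at 25.4, 27.3 and 14.8 FPKM with miR-NC. Replicate 3 was the lowest in each group and replicate 2 the highest, and the log2 fold change was -0.21 (95% limits -0.96 to 0.54). SREBF1, whose protein favours fatty acid genes, averaged 5.54 ± 1.501 FPKM with miR-204-5p and 6.45 ± 1.28 FPKM with miR-NC (SD, n = 3 each). Its log2 fold change was -0.20, and -0.03 without miR-204-5p replicate 3. SCAP, the escort of both proteins, was among the steadiest genes, from 9.78 to 11.7 FPKM with miR-204-5p and from 9.87 to 10.8 FPKM with miR-NC. For SCAP the log2 fold change was 0.08 (95% limits -0.28 to 0.45). FPKM measures their mRNA and says nothing of cleavage of the proteins, by which they are switched on.

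The 2 anchors that hold SCAP back differed in pattern. INSIG1, itself a well-known target gene of SREBP-2, stood at 2.62, 4.43 and 1.74 FPKM with miR-204-5p and at 4.18, 4.02 and 1.35 FPKM with miR-NC. Like SQLE and HMGCS1 it was lowest in replicate 3 of each group, and its log2 fold change was -0.06 (95% limits -0.98 to 0.85). INSIG2, the anchor that is less dependent on SREBP, stood at 2.22, 3.84 and 3.49 FPKM with miR-204-5p and at 4.25, 20.1 and 3.23 FPKM with miR-NC. A single library, miR-NC replicate 2, lay far above the others, and the other 5 values of INSIG2 overlapped between the groups.

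INSIG2 thus had the largest fold change of the 27 genes in size and nearly the widest error. The means were 3.18 ± 0.855 FPKM with miR-204-5p and 9.20 ± 9.47 FPKM with miR-NC (SD, n = 3 each). The log2 fold change was -0.91 (95% limits -2.31 to 0.48, unadjusted p = 0.164 in limma), and without miR-NC replicate 2 it was -0.19. In the authors' deposited table INSIG2 had a fold of 0.346, a log2 fold of -1.53, a p-value of 0.0141 and a q-value of 1. It was the only one of the 27 genes marked as significant in the authors' deposited table. The INSIG2 3' UTR searched held no seed match of any class.

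Of the 4 genes of transport and storage, 1 was positive and 3 were negative. STARD4, a carrier of cholesterol through the cytosol and a known SREBP-2 target, stood at 2.80, 4.19 and 3.20 FPKM with miR-204-5p and at 5.70, 5.51 and 2.85 FPKM with miR-NC. Replicates 1 and 2 of miR-NC lay above all miR-204-5p libraries, and replicate 3 of miR-NC lay among them. For STARD4 the log2 fold change was -0.34 (95% limits -0.97 to 0.29). Its UTR held a 6mer.

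NPC2, which takes cholesterol from the lysosome lumen, was the most abundant of the 27 genes per length and the steadiest. It stood at 96.3, 94.1 and 86.6 FPKM with miR-204-5p and at 85.7, 89.7 and 95.7 FPKM with miR-NC. Its SD across the libraries exceeded that of only 1.54% of tested genes, and its log2 fold change was 0.03 (95% limits -0.31 to 0.37). NPC1, the membrane protein that receives cholesterol from NPC2, stood at 6.39, 9.44 and 5.58 FPKM with miR-204-5p and at 8.69, 8.64 and 4.89 FPKM with miR-NC. The groups overlapped, and the log2 fold change of NPC1, the gene with the 8mer, was -0.04 (95% limits -0.69 to 0.62). SOAT1, which esterifies cholesterol for storage and carries a 7mer-A1, stood at 6.67, 11.8 and 6.40 FPKM with miR-204-5p and at 10.2, 9.82 and 5.76 FPKM with miR-NC, a log2 fold change of -0.06.

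Read by seed match, the members with a match of any class had a median log2 fold change of -0.06 and those without had -0.02. Over all tested genes with a UTR the medians were -0.06 and 0.01. These are descriptions of unequal and small sets, 7 and 20 of the cholesterol genes.

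The larger differences lay between libraries, across both transfections. Each gene's log2 value was set against its mean over the 6 libraries. The median deviation of the 27 genes was -0.01, 0.18 and -0.30 in miR-204-5p replicates 1, 2 and 3, against 0.29, 0.08 and -0.30 in the miR-NC replicates. Over all tested genes the corresponding medians were 0.01, 0.08 and -0.09 with miR-204-5p and 0.09, 0.04 and -0.10 with miR-NC. Replicate 2 was the highest of the miR-204-5p libraries in 18 of 27 genes (66.7%, against 49.3% of all tested genes). Replicate 1 was the highest of the miR-NC libraries in 20 of 27 (74.1%, against 37.7%). Replicate 3 was the lowest of the miR-204-5p libraries in 19 of 27 (70.4%, against 48.6%) and the lowest of the miR-NC libraries in 19 of 27 (70.4%, against 53.2%). These shares describe the libraries and carry no test.

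**Figure D3:**
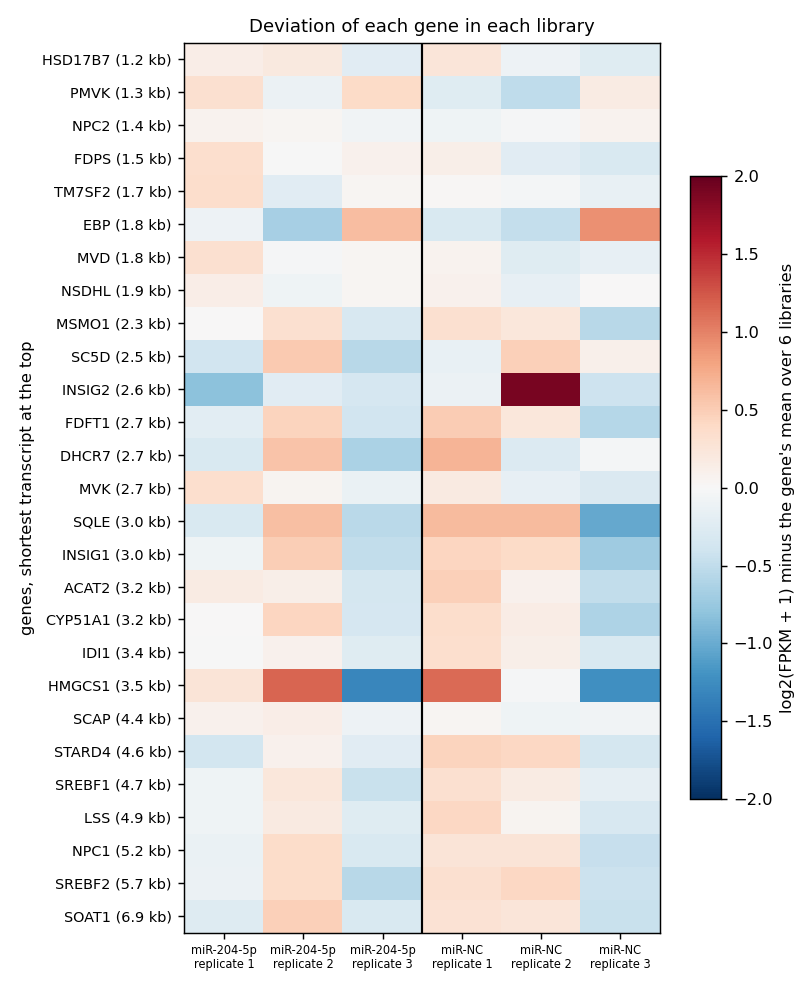
Deviation of each cholesterol gene in each library from its mean over 6 libraries (log2(FPKM + 1), colour), genes ordered by transcript length, the miR-204-5p libraries left of the line. Most rows are low in replicate 3 of both groups, with EBP and PMVK the other way, and HMGCS1 and a single INSIG2 value have the strongest colours.

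The direction of the group difference turned with these libraries. Without miR-204-5p replicate 3 the fold change was positive in 21 of 27 genes, with a median of 0.08. Without miR-NC replicate 1 it was positive in 20 genes, with a median of 0.11. Without miR-NC replicate 2 it was positive in 15 genes, with a median of 0.03. Without miR-NC replicate 3 it was positive in only 9, with a median of -0.28, and without miR-204-5p replicate 2 also in 9, with a median of -0.18. Without miR-204-5p replicate 1 it was positive in 10 genes, with a median of -0.03. Over all tested genes the median had the same sign in each of these fits and lay nearer to 0. It was 0.03, -0.05 and -0.02 without miR-204-5p replicates 3, 2 and 1. It was 0.02, 0.0033 and -0.07 without miR-NC replicates 1, 2 and 3. No gene of the 27 was called in any of these fits.

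Other features also differed between these libraries. The first principal component of all tested genes other than the 27 held 54.0% of the variance and placed the miR-204-5p replicates at -15.3, 29.5 and -41.0, against 26.0, 33.1 and -32.3 for the miR-NC replicates. Ribosomal RNA carries no poly(A) tail. Genes named as ribosomal RNA, or after clones that hold its genes, took 0.453%, 0.552% and 8.54% of the FPKM sum with miR-204-5p. With miR-NC they took 0.434%, 0.396% and 0.501%. These names also cover ribosomal RNA pseudogenes and long non-coding RNA, and precursor and mature forms were not told apart. Of 8 fibroblast and mesenchymal markers, 6 were highest in miR-204-5p replicate 3, at low levels. There COL1A2 stood at 0.948 FPKM, against at most 0.0044 in any other library, COL3A1 at 0.629 against 0.112, LUM at 0.505 against 0.0357 and DCN at 0.165 against 0.0174. The summed level of the 8 markers, most of it VIM, was 1495 to 1680 FPKM with miR-204-5p and 1399 to 1464 FPKM with miR-NC. Mitochondrially encoded genes took 24.7%, 28.8% and 20.8% with miR-204-5p and 30.0%, 29.3% and 23.2% with miR-NC, lowest in replicate 3 of each group. The part of these features in the levels of the cholesterol genes was not tested.

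The libraries also differed by transcript length. Tested protein-coding genes were split into 4 length classes of about equal size. In the longest class the median deviation over all genes was -0.09, 0.20 and -0.20 in the miR-204-5p replicates and 0.18, 0.18 and -0.21 in the miR-NC replicates, and in the shortest class the order was nearly turned round, with 0.13, -0.10 and 0.12 against -0.08, -0.13 and 0.08. The 10 cholesterol genes of the second class, which holds SQLE, INSIG1, MSMO1 and FDFT1, had medians of -0.16, 0.44 and -0.36 with miR-204-5p and 0.39, 0.23 and -0.52 with miR-NC. These lie farther from 0 than the medians of all genes in that class, which ran from -0.09 to 0.08. The third class lay closer to all genes with miR-204-5p. There its 6 cholesterol genes had -0.0449, 0.158 and -0.24, against -0.045, 0.158 and -0.186 over all genes. With miR-NC these 6 had 0.376, 0.0855 and -0.313, against 0.155, 0.129 and -0.182. The shortest class holds PMVK, EBP, NPC2 and NSDHL. The part of transcript length in the levels was not tested.

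**Figure D4:**
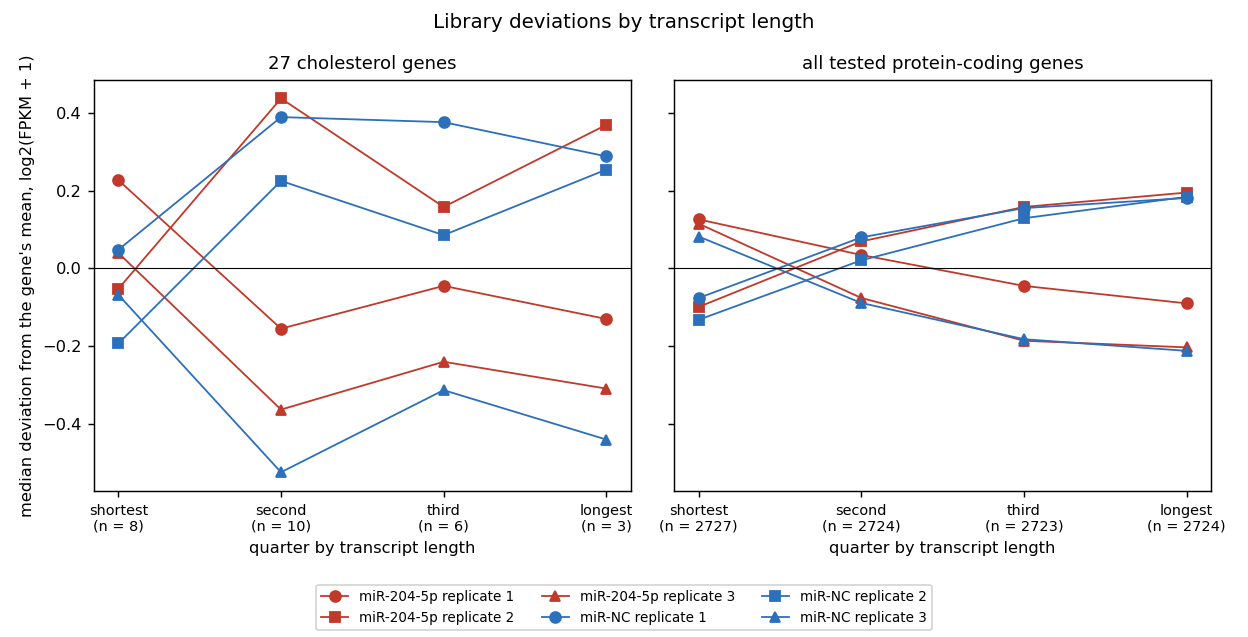
Median deviation from the gene's mean (log2(FPKM + 1)) in each library by class of transcript length, for the 27 cholesterol genes and for all tested protein-coding genes. In both panels replicate 3 of each group lies below 0 in the 3 longer classes, and the second class of cholesterol genes reaches -0.52.

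The promoters of 4 members are shown. Between libraries HMGCS1 and INSIG1 swung widely and NSDHL did not, and SREBF2 is a sensor gene. The part of promoter motifs in the levels was not tested. RefSeq promoters (GRCh38.p14, 250 bases before to 50 after the start) matched 24 of 27 members. The sterol regulatory element TCACCCCAC stood on either strand in 1 of 24 (4.17%), that of SREBF2, against 0.425% of 27305 promoters. The looser form TCACNCCAC stood in the same 1 of 24, against 1.15%. CCAAT boxes, CCAAT on either strand, stood in 17 of 24 (70.8%, against 35.7%), and GC boxes, GGGCGG on either strand, in 23 of 24 (95.8%, against 44.6%). The 27305 promoters were not limited to genes that passed the filter on low values, which all 27 members did. A letter match is a description of the window and not a site in use, and its absence here says only that these letters are not in it. Capitals mark matches on either strand, so that ATTGG is a CCAAT box read backwards, and overlapping matches run into each other. Each printed stretch is only part of the window counted, and matches outside the stretch are not shown. Among those not shown are the GC boxes of SREBF2, at -23, -10 and -5 from the start. The stretches are chr5:43313513-43313612 on the minus strand for HMGCS1, chr7:155297678-155297775 on the plus strand for INSIG1, chrX:152830863-152830966 on the plus strand for NSDHL and chr22:41832905-41833025 on the plus strand for SREBF2.
HMGCS1: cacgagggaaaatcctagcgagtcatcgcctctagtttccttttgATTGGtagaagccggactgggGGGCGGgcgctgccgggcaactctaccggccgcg
INSIG1: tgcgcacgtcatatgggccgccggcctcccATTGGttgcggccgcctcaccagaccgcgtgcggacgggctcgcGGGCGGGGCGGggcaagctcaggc
NSDHL: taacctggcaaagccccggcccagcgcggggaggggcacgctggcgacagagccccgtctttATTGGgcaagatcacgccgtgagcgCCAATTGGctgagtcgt
SREBF2: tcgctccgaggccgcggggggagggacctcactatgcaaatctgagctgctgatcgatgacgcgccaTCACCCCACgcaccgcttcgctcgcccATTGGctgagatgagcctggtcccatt

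Other genes tied to the pathway, 84 in 5 lists, were read from the same fit. Of these, 71 passed the filter on low values and 0 were called in either direction (limma, Benjamini-Hochberg), and 1 positive and 1 negative fold change had an unadjusted p under 0.05, against 2.08% of all tested genes. Fold changes were positive in 21 and negative in 50, with a median of -0.09. Over all tested genes 6172 were positive and 6979 negative, with a median of -0.02. The signs in these lists were not recounted with single libraries left out. All 3 miR-204-5p values lay above all miR-NC values in 3 of 71 genes, GGPS1, NR1H2 and SCARB2, against 3.77% of all tested genes, and below them in 0, against 2.17%. CH25H, which makes an oxysterol, was listed at 0 in all libraries.

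The positive one was SCARB2, a lysosomal membrane protein that has been described to bind cholesterol. It stood at 7.94, 12.0 and 8.60 FPKM with miR-204-5p and at 2.89, 4.13 and 3.29 FPKM with miR-NC. The groups lay apart and the log2 fold change was 1.24 (95% limits 0.73 to 1.74), yet its adjusted p was 1.00 in limma (Benjamini-Hochberg). Of the same list of transport genes, the sterol-binding OSBPL2 had a log2 fold change of -0.54 and OSBPL1A of -0.85. With a pseudocount of 0.1 these were -1.03 and -1.54, and OSBPL1A was at -1.47 when miR-204-5p replicate 2 was left out and at -0.47 when replicate 3 of that group was. The list had 7 positive and 9 negative of 16 tested, median -0.06.

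The negative one was ACSL4, which activates polyunsaturated fatty acids. It stood at 5.81, 8.18 and 3.63 FPKM with miR-204-5p and at 13.3, 15.5 and 7.12 FPKM with miR-NC. Only miR-204-5p replicate 2 and miR-NC replicate 3 overlapped, and the log2 fold change was -0.91 (95% limits -1.74 to -0.08). Of the fatty acid genes it belongs to, 3 were positive and 13 negative of 16 tested, median -0.13. Among these the elongase ELOVL6 had -0.38 and PCYT2, of phospholipid synthesis, 0.28.

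In the remaining lists the fold changes were small. Partners, proteases and ubiquitin ligases of the SREBP system had 3 positive and 12 negative of 15 tested, median -0.11. The coat protein SEC24D had a log2 fold change of -0.64. Other genes of synthesis and uptake had 5 positive and 9 negative of 14 tested, median -0.09. The side-branch enzymes DHDDS and GGPS1 had 0.49 and 0.28. Efflux genes had 3 positive and 7 negative of 10 tested, median -0.05. NR1H2, a receptor that senses oxysterols, stood at 12.1, 10.7 and 14.8 FPKM with miR-204-5p and at 9.10, 9.58 and 10.6 FPKM with miR-NC, with a log2 fold change of 0.32. SMPDL3A had -0.31.

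The cell type label was checked against its markers. Keratins of simple epithelium were abundant, with KRT8 at 143 and KRT18 at 228 FPKM on average with miR-204-5p and 137 and 211 FPKM with miR-NC. The pigment epithelium genes RLBP1, BEST1, RDH5 and OTX2 were present, while RPE65 reached at most 0.0294 FPKM and TYR and TTR were listed at 0 in all libraries. Of 15 markers of pigment epithelium, 7 had a mean of at least 1 FPKM, as did 0 of 7 photoreceptor and neuron markers, whose sum was 1.07 to 1.52 FPKM with miR-204-5p and 0.813 to 1.10 FPKM with miR-NC. VIM, a mesenchymal filament common in cultured lines, averaged 1593 FPKM with miR-204-5p and 1422 FPKM with miR-NC. CDH1 and EPCAM reached at most 0.0525 FPKM.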

How the data were processed

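Poly(A) RNA of 6 ARPE-19 libraries was read as pairs of 150 bases, per the labels' protocols. The authors deposited FPKM values, 1 column per library, with 0.0001 in place of 0, which was read as 0. The submitters' processing notes name GRCh38 and the tools HISAT2 2.0.4, StringTie 1.3.4d, cutadapt 1.9, DESeq2 and edgeR without saying what each did. No annotation release or filter is given in the sources used here. For each gene the authors deposited a fold ratio, its log2, a p-value and a q-value, whose tool is not named.

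From these values, log2(FPKM + 1) was tested in R 4.3.3 by limma 3.58.1, two-sided and with its intensity trend. Genes needed 0.5 FPKM or more in 3 or more libraries, which left 13151 of 60612. P-values were adjusted by Benjamini-Hochberg over all tested genes at a threshold of 0.05. This scale understates changes of low genes. The test was checked on simulated data with independent noise for each gene, which lacked the shared differences seen between these libraries. Sites were searched in 3' UTRs of GENCODE release 29 with Python 3.11.15.

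Depth was roughly 19000000 to 23300000 read pairs per library, from the step of 1 pair in low values, of which 28.4% to 36.3% were within 1% of whole steps. At that depth the HMGCS1 values rest on roughly 27 to 520 pairs. The values of HSD17B7 rest on roughly 24 to 49 pairs and those of SC5D on roughly 23 to 116.

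The members and lists were chosen with earlier results of these data known. All 27 members are named, with the 3 genes of smallest unadjusted p in each list of related genes, of which 4 are not reported here. The alternatives were another pseudocount (0.1), other filters and scalings, the replicate number as a block, no trend, and each library left out. The search of principal transcripts was added after seeing the data. Because FPKM is scaled to the library total, an abundant RNA such as ribosomal RNA lowers every other value of its library.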

Additional observations from a re-analysis of the deposited data

How the results depend on the processing

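Over the alternatives run, 0 of the 27 genes and 0 of the related genes were called, and 0 genes in all, except that 0 to 3 genes were called when a library was left out. The 3 were RPS26P19, ABLIM3 and UCN2, without miR-204-5p replicate 2. Of 574 alternative values of 41 genes, the 27 and 14 of the related genes, 528 kept their sign and 46 changed it, in 18 genes. The changed filters, the replicate block and the fit without trend leave each fold change as it was, so their signs could not change. Quantile normalization gave -0.0588 for MSMO1, -0.0062 for NSDHL and -0.036 for NPC2. Rescaling without ribosomal and mitochondrial RNA gave -0.0484 for MSMO1, -0.0011 for NSDHL and -0.0199 for NPC2, and moved the median of all genes to -0.05. With each library left out in turn, the log2 fold change ranged from -0.31 to 0.19 for ACAT2, -0.22 to 0.26 for CYP51A1, -0.59 to 0.0381 for DHCR7, -0.43 to 0.34 for EBP, -0.42 to 0.12 for FDFT1, -0.52 to 0.74 for HMGCS1, -0.0392 to 0.21 for HSD17B7, -0.28 to 0.0368 for IDI1, -0.43 to 0.17 for INSIG1 and -0.28 to 0.0913 for LSS. It ranged from -0.27 to 0.16 for MSMO1, -0.28 to 0.10 for NPC1, -0.0068 to 0.0757 for NPC2, -0.0226 to 0.10 for NSDHL, -0.31 to 0.0826 for SOAT1, -0.71 to 0.11 for SQLE, -0.47 to 0.0183 for SREBF2 and -0.0344 to 0.25 for TM7SF2. The cause was not tested. INSIG2 ranged from -1.35 to -0.19, SREBF1 from -0.36 to -0.03, MVK from 0.05 to 0.31 and SC5D from -0.61 to -0.07. At an unadjusted p under 0.05, SC5D passed without miR-204-5p replicate 2 (-0.61), and STARD4 (-0.60) and PMVK (0.57) without miR-NC replicate 3, where a group of 2 libraries remains.

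The correlations between libraries did not settle whether the replicate numbers pair the samples. The deviations of libraries that share a number had correlations of 0.04, 0.55 and 0.52. The highest between different numbers was 0.317, of miR-204-5p replicate 2 with miR-NC replicate 1. The closest match of miR-204-5p replicate 1 was replicate 3 of miR-NC, at 0.16. With the number as a block 0 genes were called, and 941 genes, against 273 without it, had an unadjusted p under 0.05, among them PMVK and FDPS. Without a filter, 731 of 29823 genes did.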
